A study of Arabidopsis thaliana with 18 samples.

Results

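The genes described here are 8 small heat shock protein genes of Arabidopsis thaliana, the disaggregase gene HSP101 and the heat shock factor gene HSFA2. They were taken as 10 listed gene identifiers out of 32547 nuclear genes counted in every file, and all 10 passed the filter on low counts. Seedlings of candidate transparent testa (tt) mutants, a class named for seed coats without brown pigment, and of the wild type accession Col-0 were profiled by poly(A) RNA sequencing after 4 days of shaking culture in 3% sucrose with light for 24 h a day, under what the labels call AIC. There were 16 mutant libraries and 2 Col-0 files.

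The mutants were insertion lines at 6 loci of flavonoid synthesis or its control. The ban lines were ban-6 (SALK_052000) and ban-7 (SAIL_874_C01), the tt1 lines tt1-4 (SALK_018552) and tt1-5 (SALK_109926), the tt3 lines tt3-3 (SAIL_649_G09) and tt3-4 (SAIL_1180_D08), and the tt5 lines tt5-3 (SAIL_641_E10) and tt5-4 (SALK_023403). The tt8 lines were tt8-7 (GK-089H05), tt8-8 (SALK_010879), tt8-9 (SALK_137974), tt8-10 (SALK_205661), tt8-11 (SALK_206210) and tt8-12 (SAIL_239_C11), and the ttg1 lines were ttg1-23 (SALK_012389) and ttg1-24 (SAIL_1175_C01). BAN, TT3 and TT5 encode enzymes, TT8 and TTG1 are partners in one regulatory complex, and TT1 is a zinc finger protein. Each allele is 1 line with 1 library, so alleles of a locus stood in as its samples. No label says that the libraries came from separate cultures, so a p-value here measures the spread between these samples alone.

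Total counts per library lay between 8057534 and 27145377. The spread between the Col-0 files was below sampling noise (a chi-square of 0.222 per degree of freedom, against 9.54 to 143 for the 20 pairs of lines of 1 locus), and they were counted as 1 sample, which left 17 samples. The targeted transcript was below Col-0 in both tt5 lines (4.23 and 4.50 CPM, counts per 1000000 counts of the counted genes, against 43.4 CPM in Col-0) and in both ttg1 lines (15.9 CPM and 0 counts, against 30.4 CPM in Col-0). BAN and TT1 had at most 2 counts in any sample. TT3 lay above Col-0, not below it, in both libraries labelled tt3 (211 and 274 CPM, against 63.2 CPM in Col-0), and TT8 was below Col-0 (11.5 CPM) in 2 of the 6 libraries labelled tt8, whose range was 6.97 to 102 CPM. Transcript level therefore does not check these 2 sets of labels. Nor can it check the ban and tt1 labels, since BAN and TT1 were nearly uncounted in Col-0 too (0.06 CPM and 0 CPM). As a check of the tissue, of 6 photosynthesis genes of green tissue RBCS1A had 82.5 to 295 CPM in the mutants and 157 CPM in Col-0. LHB1B2 was at 0 in every sample and the other 4 reached at most 8.94 CPM, and the split of reads among near copies in these families is uncertain. With RBCS1A alone well counted, the list does not settle how green the seedlings were.

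Small heat shock proteins hold unfolding proteins in a soluble state without using ATP, and HSP101 pulls proteins back out of aggregates with ATP. Heat shock factors switch these genes on by binding repeats of the unit nGAAn, called heat shock elements, and HSFA2, itself a target of the A1 heat shock factors, sustains that transcription. In seedlings without heat or other stress most of these genes are nearly silent, whereas in developing seeds some small heat shock proteins are made under the seed factor HSFA9.

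The upstream sequences shown here are those of the members whose window of 250 bases before the annotated start held a heat shock element of 3 units, GAANNTTC followed by NNGAA or TTCNNGAA followed by NNTTC, read on both strands. They were HSP17.4 (chr3:16984868-16985117, minus strand), HSP17.6C (chr1:19980049-19980298, plus strand) and HSFA2 (chr2:11135374-11135623, plus strand), from the RefSeq annotation and genome of TAIR10.1, 5′ to 3′ in the direction of the gene. Capitals mark every match to a motif of 2 units, GAANNTTC or TTCNNGAA, and the motif of 3 units holds both of these as overlapping parts.
HSP17.4: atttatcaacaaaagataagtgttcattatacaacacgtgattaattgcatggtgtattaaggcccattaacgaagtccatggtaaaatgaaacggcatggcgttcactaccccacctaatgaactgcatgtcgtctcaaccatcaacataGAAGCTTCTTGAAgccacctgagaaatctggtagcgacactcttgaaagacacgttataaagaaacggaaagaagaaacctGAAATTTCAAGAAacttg
HSP17.6C: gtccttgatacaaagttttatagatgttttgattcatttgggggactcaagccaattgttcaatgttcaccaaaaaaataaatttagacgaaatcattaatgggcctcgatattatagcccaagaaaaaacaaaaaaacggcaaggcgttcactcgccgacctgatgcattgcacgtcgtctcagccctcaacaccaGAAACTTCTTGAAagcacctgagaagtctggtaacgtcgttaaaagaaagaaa
HSFA2: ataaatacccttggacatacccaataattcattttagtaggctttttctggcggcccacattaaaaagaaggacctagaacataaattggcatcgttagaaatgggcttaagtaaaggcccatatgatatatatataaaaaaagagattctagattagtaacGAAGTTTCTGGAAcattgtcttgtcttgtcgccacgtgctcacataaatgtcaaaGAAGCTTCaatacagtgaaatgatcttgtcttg
The motif of 3 units was found in 3 of the 10 members and in 0.386% of the 27443 windows of the same length before protein-coding genes. GAANNTTC was in 4 members and 9.55% of all windows, and TTCNNGAA was in 4 members and 7.68% of all windows. The matches of HSP17.4 lay between 99 and 6 bases before the start, the match of HSP17.6C between 53 and 41 bases, and those of HSFA2 between 88 and 26 bases. The other 5 of the 10 windows held neither motif of 2 units. The windows rest on the annotated starts, and a match is a description of letters.

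Across the 17 samples the 10 genes shared the ends of their order. Col-0 was the lowest sample for 10 of 10 genes, a pattern held by 19.7% of the 19753 genes with a mean count of at least 10. The library labelled tt3-3 was the highest for 10 of 10 genes, against 7.11% of those genes, and both ends together were held by 1.88% of them. The library labelled tt8-9 was the lowest mutant for 9 of 10 genes, against 5.02%, and ban-7 was the lowest for HSP22. The 10 genes varied together and were chosen with earlier results of these data known, so these counts are not independent observations. In the highest sample the level was 7.85 times (HSP101) to 22.6 times (HSP21) that in the lowest. In these whole seedlings, fewer cells of a type and less RNA per cell cannot be told apart.

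**Figure D1:**
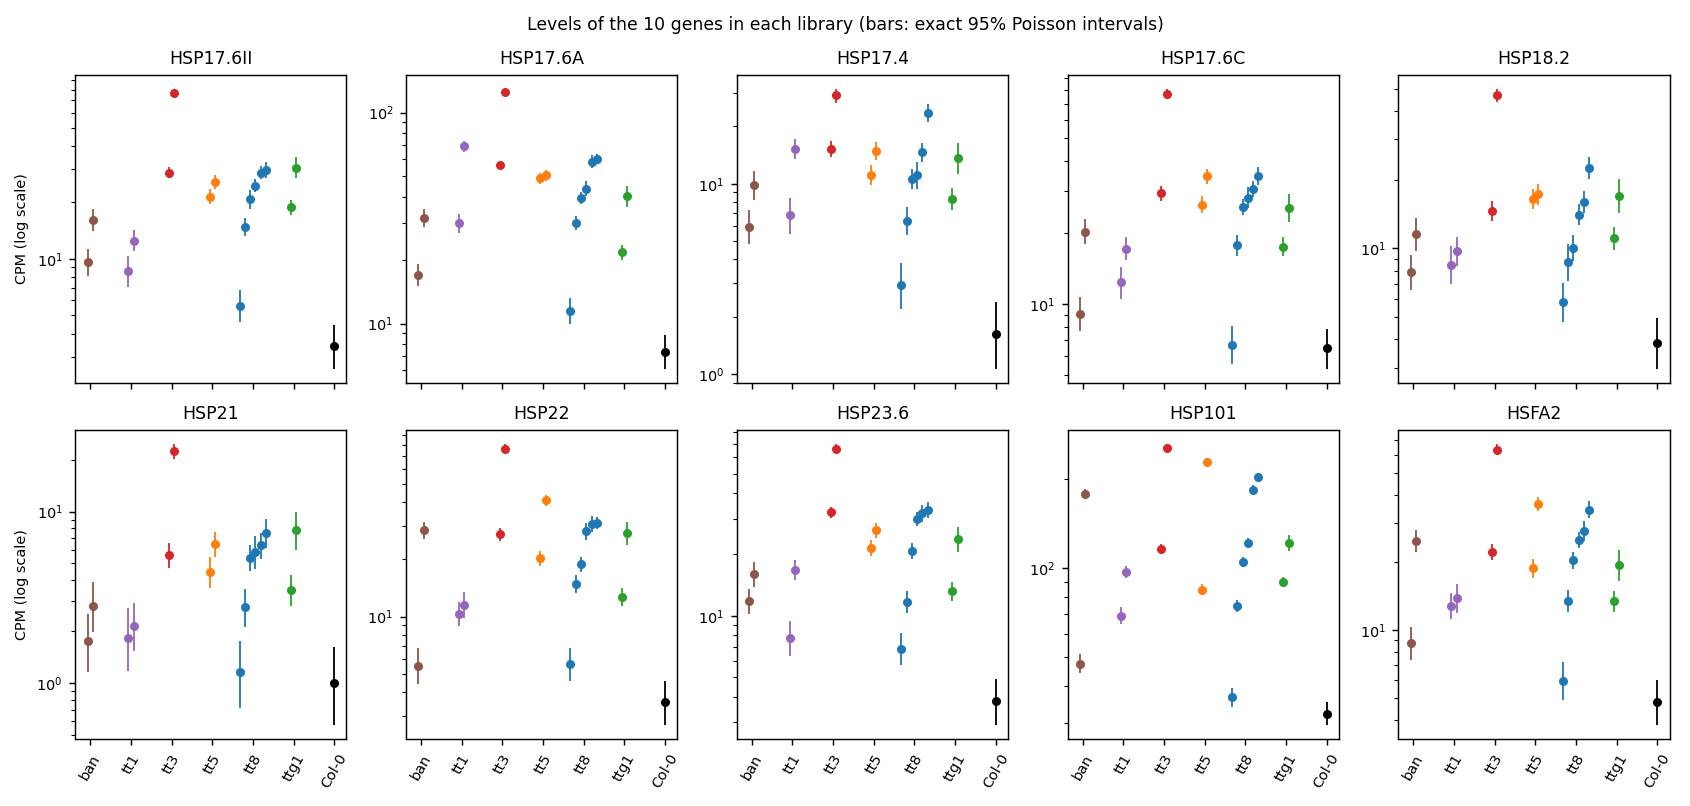
Level of each gene in CPM (vertical axis, log scale) in each mutant library, grouped by locus, and in Col-0 at the right. Points within a locus run from low to high, and bars are exact 95% Poisson intervals, which cover counting error only. In all 10 panels Col-0 is the lowest point and one library labelled tt3 is the highest.

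HSFA2 (AT2G26150, chr2:11135624-11137792, plus strand, 3 exons) is the transcription factor of the set. It had 24.8 and 8.76 CPM in ban-6 and ban-7, 12.8 and 13.8 CPM in tt1-4 and tt1-5, and 63.2 and 22.3 CPM in the libraries labelled tt3-3 and tt3-4. The level was 18.8 and 36.2 CPM in tt5-3 and tt5-4, 5.95 to 34.3 CPM (median 22.8) in the 6 libraries labelled tt8 and 13.4 and 19.4 CPM in ttg1-23 and ttg1-24, against 4.80 CPM in Col-0. Every mutant library lay above Col-0, with ban-7 and the library labelled tt8-9 nearest to it. The 95% Poisson intervals of tt8-9 (4.88 to 7.19 CPM) and Col-0 (3.79 to 5.998 CPM) overlapped. The log2 difference from Col-0 was 3.00 ± 1.06 (SE) for tt3 and ran from 1.34 in tt1 to 2.42 in tt5 for the other loci, and none passed edgeR's quasi-likelihood test with Benjamini-Hochberg adjustment at 0.05 (adjusted p 0.177 to 0.503).

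HSP101 (AT1G74310, chr1:27936508-27940369, minus strand, 6 exons), the cytosolic ClpB disaggregase that plants need to survive severe heat, was the most abundant transcript of the set as counted, though its exons are also the longest. Its level was 178 and 47.6 CPM in ban-6 and ban-7, 97.2 and 69.1 CPM in tt1-4 and tt1-5, and 254 and 116 CPM in the libraries labelled tt3-3 and tt3-4. It was 84.7 and 227 CPM in tt5-3 and tt5-4, 36.7 to 202 CPM (median 113) in the libraries labelled tt8, and 89.9 and 121 CPM in ttg1-23 and ttg1-24, against 32.3 CPM in Col-0. Lines of 1 locus stood far apart here, ban-6 above ban-7 and tt5-4 above tt5-3, and all mutants lay above Col-0. The log2 difference from Col-0 was 2.37 ± 1.08 (SE) for tt3 and ran from 1.23 in tt1 to 2.17 in tt5 for the other loci, and none passed the edgeR test (adjusted p 0.264 to 0.559). The annotation places 101 bases of AT1G74300 on the opposite strand, and the strand setting of the counting is not given in the sources used here. AT1G74300 had 2.16 to 5.59 CPM in the mutants and 3.24 CPM in Col-0.

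The cytosolic class I small heat shock proteins in the set are HSP17.4 (AT3G46230, chr3:16984118-16984867, minus strand), HSP17.6C (AT1G53540, chr1:19980299-19981199, plus strand) and HSP18.2 (AT5G59720, chr5:24062323-24063300, plus strand). For HSP17.4 the ban lines had 9.86 and 5.95 CPM, the tt1 lines 15.2 and 6.81 CPM, and the libraries labelled tt3-3 and tt3-4 29.1 and 15.2 CPM. In the tt5 lines it had 11.1 and 14.9 CPM, in the libraries labelled tt8 2.92 to 23.6 CPM (median 10.9) and in the ttg1 lines 8.35 and 13.7 CPM, against 1.62 CPM in Col-0. Both libraries labelled tt3 lay above both tt5 lines, and the libraries labelled tt8 covered most of the range of all mutants. The log2 difference from Col-0 was 3.63 ± 1.14 (SE) for tt3 and ran from 2.21 in ban to 2.90 in tt5 for the other loci, and none passed the edgeR test (adjusted p 0.142 to 0.363). On the opposite strand HSP17.4 overlaps AT3G46220 by 60 bases, a gene at 36.2 to 57.3 CPM in the mutants and 35.2 CPM in Col-0, and AT3G07365, which had 0 counts in every sample.

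HSP17.6C had 20.2 and 9.08 CPM in the ban lines, 17.1 and 12.3 CPM in the tt1 lines and 77.1 and 29.3 CPM in the libraries labelled tt3-3 and tt3-4. The tt5 lines had 26.3 and 34.5 CPM, the libraries labelled tt8 6.72 to 34.8 CPM (median 26.9) and the ttg1 lines 17.4 and 25.4 CPM, against 6.48 CPM in Col-0. The library labelled tt8-9 was at the Col-0 level, with 5.58 to 8.03 CPM as its 95% interval and 5.30 to 7.85 CPM as that of Col-0. HSP18.2, whose promoter is often used to drive heat-induced transgenes, had 11.5 and 7.89 CPM in the ban lines, 9.72 and 8.49 CPM in the tt1 lines and 46.8 and 14.6 CPM in the libraries labelled tt3-3 and tt3-4. Its values were 16.5 and 17.3 CPM in the tt5 lines, 5.84 to 22.6 CPM (median 12.1) in the libraries labelled tt8 and 11.1 and 17 CPM in the ttg1 lines, against 3.86 CPM in Col-0. Only the library labelled tt3-3 stood apart at the top for both genes, while tt3-4 lay among the tt8 libraries. Log2 differences of tt3 from Col-0 were 2.89 ± 0.92 (SE) for HSP17.6C and 2.83 ± 0.85 for HSP18.2, with adjusted p of 0.148 and 0.132 by edgeR. For the other 5 loci they ran from 1.05 in tt1 to 2.12 in tt5 for HSP17.6C and from 1.10 in tt1 to 2.02 in tt5 for HSP18.2, and none passed (adjusted p 0.148 to 0.569 and 0.132 to 0.493 over the 6 loci).

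HSP17.6II (AT5G12020, chr5:3882231-3883111, minus strand) and HSP17.6A (AT5G12030, chr5:3883957-3884838, minus strand) are cytosolic class II genes in tandem, with 845 bases between them. HSP17.6II had 16.2 and 9.58 CPM in the ban lines, 12.5 and 8.64 CPM in the tt1 lines and 76.9 and 28.8 CPM in the libraries labelled tt3-3 and tt3-4. It had 21.5 and 25.8 CPM in the tt5 lines, 5.62 to 29.8 CPM (median 22.7) in the libraries labelled tt8 and 18.8 and 30.7 CPM in the ttg1 lines, against 3.43 CPM in Col-0. The mutants lowest for it were the library labelled tt8-9 and the tt1 line tt1-5. For HSP17.6A the ban lines had 31.7 and 17.1 CPM, the tt1 lines 69.1 and 29.9 CPM and the libraries labelled tt3-3 and tt3-4 125 and 56.1 CPM. There were 50.3 and 48.8 CPM in the tt5 lines, 11.5 to 60.5 CPM (median 41.5) in the libraries labelled tt8 and 21.8 and 40.1 CPM in the ttg1 lines, against 7.35 CPM in Col-0. Here tt1-4 was the second highest sample, whereas for HSP17.6II it lay in the lower part of the range. HSP17.6II had the largest of the 10 log2 differences of tt3 from Col-0, 3.79 ± 0.98 (SE, adjusted p 0.0894 by edgeR), and HSP17.6A had 3.47 ± 0.99 (adjusted p 0.118). The other loci ran from 1.495 in tt1 to 2.83 in ttg1 for HSP17.6II and from 1.66 in ban to 2.65 in tt5 for HSP17.6A, and none passed (adjusted p 0.0894 to 0.409 and 0.118 to 0.419 over the 6 loci).

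Of the organelle members, HSP21 (AT4G27670, chr4:13818825-13819971, minus strand, 2 exons) acts in chloroplasts, HSP22 (AT4G10250, chr4:6370338-6371372, plus strand) in the endoplasmic reticulum and HSP23.6 (AT4G25200, chr4:12916926-12918110, plus strand, 2 exons) in mitochondria. HSP21 had 2.83 and 1.75 CPM in the ban lines, 2.16 and 1.84 CPM in the tt1 lines and 22.5 and 5.56 CPM in the libraries labelled tt3-3 and tt3-4. The tt5 lines had 6.44 and 4.45 CPM, the libraries labelled tt8 1.16 to 7.48 CPM (median 5.59) and the ttg1 lines 3.49 and 7.82 CPM, against 0.997 CPM in Col-0. This was the least abundant gene of the set, with 16 counts in Col-0 (95% interval 0.570 to 1.62 CPM), which overlapped the intervals of the library labelled tt8-9 (0.716 to 1.77 CPM), of ban-7 (1.17 to 2.53 CPM) and of both tt1 lines.

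For HSP22 the values were 28.5 and 5.51 CPM in the ban lines, 10.3 and 11.6 CPM in the tt1 lines and 76.6 and 27.0 CPM in the libraries labelled tt3-3 and tt3-4. They were 20.3 and 41.0 CPM in the tt5 lines, 5.62 to 31.1 CPM (median 23.5) in the libraries labelled tt8 and 12.7 and 27.4 CPM in the ttg1 lines, against 3.55 CPM in Col-0. As for HSP101 and HSFA2, ban-6 stood far above ban-7 and tt5-4 above tt5-3. HSP23.6 had 15.98 and 11.8 CPM in the ban lines, 16.8 and 7.80 CPM in the tt1 lines and 65.9 and 32.2 CPM in the libraries labelled tt3-3 and tt3-4. It reached 21.6 and 26.3 CPM in the tt5 lines, 6.89 to 33.1 CPM (median 25.4) in the libraries labelled tt8 and 13.2 and 23.8 CPM in the ttg1 lines, against 3.80 CPM in Col-0. The libraries labelled tt3 lay above the tt5 lines for HSP23.6 and overlapped them for HSP21 and HSP22. Log2 differences of tt3 from Col-0 were 3.65 ± 1.17 (SE) for HSP21, 3.71 ± 1.26 for HSP22 and 3.54 ± 1.01 for HSP23.6, with adjusted p of 0.15, 0.166 and 0.116 by edgeR. None of these genes passed against Col-0 for any locus (adjusted p 0.15 to 0.705, 0.166 to 0.528 and 0.116 to 0.408).

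Levels of different genes were compared per kilobase of annotated exon. The median over the 17 samples was highest for HSP17.6A (45.5 CPM per kilobase), HSP101 (31.1) and HSP17.6C (28.2), and lowest for HSFA2 (10.3) and HSP21 (4.53). HSP101 alone held 30.4% (library labelled tt3-3) to 52.3% (ban-6) of the summed CPM of the 10 genes in the mutants, and 47.4% in Col-0. Reads of 50 bases could be placed on these genes, since 0 of the 50-base words of 9 members and 6 of 3068 (0.196%) of those of HSP101 occurred elsewhere in the TAIR10.1 genome.

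Seen by library, the 10 genes together had 837 CPM in the library labelled tt3-3, 88.9 CPM in that labelled tt8-9 and 125 to 477 CPM in the other mutant libraries, against 68.2 CPM in Col-0. All 10 genes were at least 2-fold above Col-0 in 13 of the 16 mutant libraries, 8 in tt1-5, 5 in ban-7 and 0 in the library labelled tt8-9. Of all genes with a mean count of at least 10, the share at least 2-fold above Col-0 was 12.7% in the library labelled tt8-9, 14.1% and 13.1% in those labelled tt3-3 and tt3-4, 7.8% in ban-6, 14.2% in ban-7, 14.7% in tt1-4 and 10.6% in tt1-5. It was 12.9% in tt5-3, 8.02% in tt5-4, 10.6% in ttg1-23, 11.9% in ttg1-24, and 12%, 13.9%, 13.2%, 10.3% and 7.73% in the libraries labelled tt8-10, tt8-11, tt8-12, tt8-7 and tt8-8. The library labelled tt8-9 thus had 0 of the 10 genes at that fold while its share of all genes lay in the middle of the 16. The median rank of the 10 genes, counted from the lowest of the 17 samples, was 2 for the library labelled tt8-9, 3 for ban-7, 15 for that labelled tt8-7 and 17 for that labelled tt3-3. Libraries of the tt8 label were thus spread over nearly the whole order.

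Loci were then ordered by the mean of their lines. The tt3 label came first for 10 of 10 genes, and the last place went to tt1 for 7 genes and to ban for 3. Of the 50 pairs of neighbouring loci in these orders, 46 overlapped in the levels of their lines and 4 did not. In those 4 the libraries labelled tt3 lay above the tt5 lines for HSP17.6A, HSP17.4 and HSP23.6, and the ttg1 lines above the tt1 lines for HSP17.6C.

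The comparison named in the design, each mutant locus against Col-0, gave higher fitted levels for all 10 genes in every locus, but no gene passed. The 6 comparisons share the 1 Col-0 sample, so they are not independent of each other. Over the 10 genes the median log2 difference was 3.51 for tt3 (2.37 to 3.79), 2.48 for tt5 (2.02 to 3.00), 2.30 for tt8 (1.67 to 2.77), 2.16 for ttg1 (1.69 to 2.83), 1.73 for ban (1.10 to 2.21) and 1.41 for tt1 (0.87 to 2.63). The median over all 20747 genes tested was 0.02 to 0.06.

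By edgeR's quasi-likelihood test with Benjamini-Hochberg adjustment, 0 of 10 members were called in each comparison, where the share of all genes called was 0.602% for tt3, 0.246% for tt5, 2.21% for tt8, 1.56% for ttg1, 0.569% for ban and 1.55% for tt1. At an unadjusted p under 0.05 there were 10 members for tt3 (18.8% of all genes), 8 for tt5 (10.8%), 8 for tt8 (20.5%), 6 for ttg1 (18.9%), 0 for ban (15%) and 2 for tt1 (17%). DESeq2 called 9 members for tt3, all but HSP101 (5.16% of the genes it tested). It called HSP17.6II, HSP17.6A, HSP17.4 and HSP23.6 for tt8 (7.34%), HSP17.6II for ttg1 (7.72%), HSP17.6A for tt1 (5.34%), and 0 members for tt5 (1.99%) and ban (3.7%). With the Col-0 files entered as 2 samples, edgeR called 9 members for tt3 and 9 for tt8, while the background grew to 12.1% and 21%. That setting treats near-identical files as separate samples, so its counts are not a sounder result.

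Among the files, those of Col-0 and of the lines labelled tt8-8 and tt8-11 had Windows line ends and the other 14 had Unix line ends, a technical split that the labels do not mention. Within the Windows files all 10 genes were above Col-0 in both lines, by log2(CPM + 1) differences of 1.00 (HSP18.2 in tt8-8) to 2.88 (HSP17.6A in tt8-11). The Unix files hold no Col-0 sample.

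**Figure D2:**
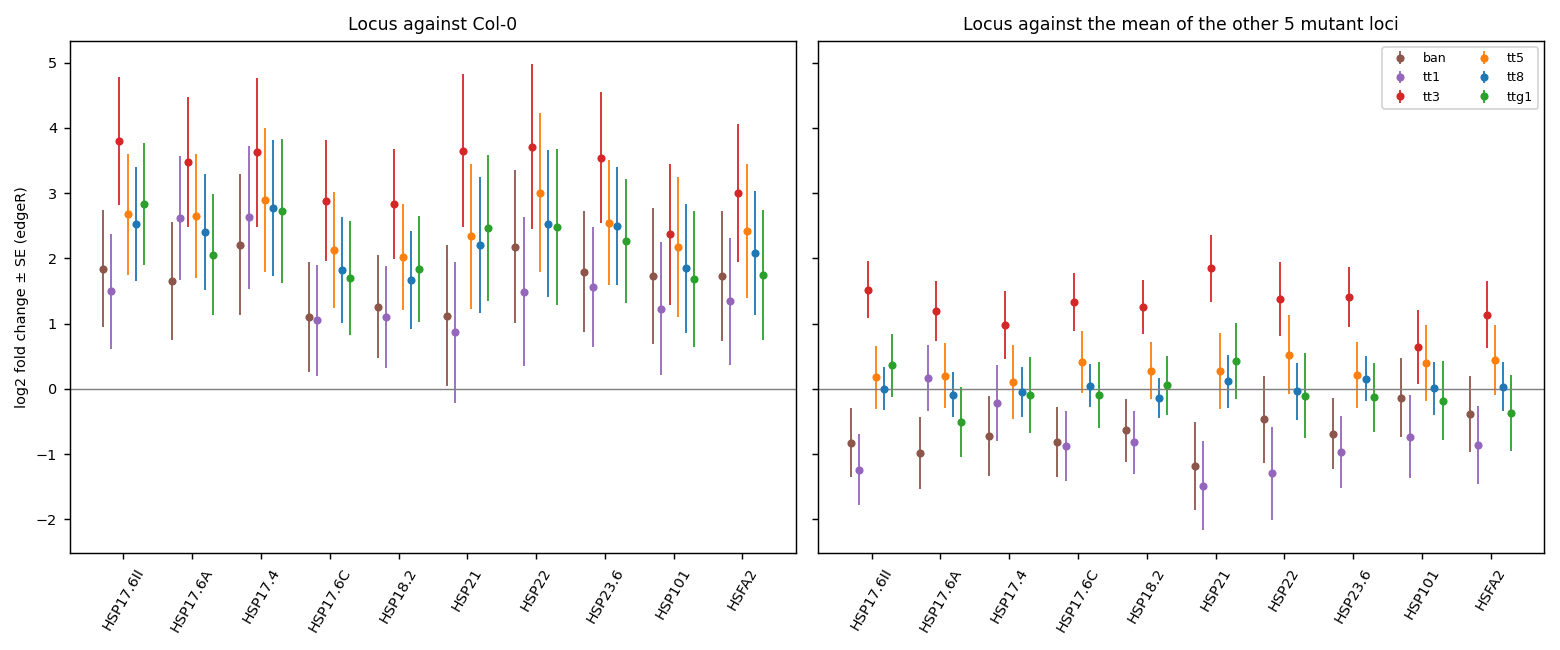
Log2 fold change with its SE (vertical axis, edgeR) of each gene for the 6 mutant loci, at the left against Col-0 and at the right against the mean of the other 5 mutant loci. At the left all points are above 0 and tt3 is highest for all 10 genes, and at the right tt3 lies above 0 and ban and most tt1 values below 0, with none past the threshold.

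Whether the loci differed from each other was tested without the Col-0 level, each locus against the mean of the other 5. For tt3 the log2 difference was 0.64 (HSP101) to 1.85 (HSP21), with a median of 1.29 against 0.01 over all genes. HSP21 had 1.85 ± 0.51 (SE), HSP17.6II 1.52 ± 0.44 and HSP23.6 1.41 ± 0.46, all with an adjusted p of 0.846 by edgeR. At an unadjusted p under 0.05 there were 8 members, against 4.39% of all genes, while 0 members and 0% of genes were called by edgeR, and DESeq2 called 0 members and 0.0635% of genes. Against Col-0 the tt3 median was 2.62 without the library labelled tt3-3, with 8 members still at an unadjusted p under 0.05. Against the other loci the median was then 0.52 and 0 members had an unadjusted p under 0.05, and without tt3-4 it was 1.82 with 8 such members. The number of members at that p against the other loci thus depended on the library labelled tt3-3.

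Median log2 differences from the other mutant loci were -0.86 for tt1 and -0.70 for ban, against 0.28 for tt5, 0.01 for tt8 and -0.10 for ttg1. Again 0 members were called in these 5 comparisons by edgeR or DESeq2. The share of all genes that edgeR called was 0.14% for tt1, 0.959% for ttg1 and 0% for ban, tt5 and tt8. DESeq2 called 1.88% of genes for tt1, 5.27% for ttg1, 0.0952% for ban, 0.0107% for tt5 and 0.0454% for tt8. At an unadjusted p under 0.05 there were 2 members for tt1, against 11.5% of all genes. There were 0 for ban (4.82%), tt5 (2.11%), tt8 (2.36%) and ttg1 (18.4%). In the test of any difference among the 6 loci, 0 members and 0% of genes were called by edgeR, and 0 members and 3.94% of genes by DESeq2. By edgeR HSP21 and HSP17.6II had an unadjusted p under 0.05 there, as had 9.06% of all genes.

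The level of HSFA2 was set against that of each other member over the 17 samples, on the log2(CPM + 1) scale, as 9 relations. Pearson's r ran from 0.872 for HSP21 to 0.976 for HSP22, and Spearman's rho from 0.701 for HSP17.6A to 0.961 for HSP22. HSP17.6C (r 0.967, rho 0.941) and HSP101 (r 0.963, rho 0.949) followed HSP22. For Pearson's r the permutation p was 1e-05 in all 9 relations, raw and adjusted over the 9 by Benjamini-Hochberg, which is the smallest that 100000 permutations can give. For rho the raw permutation p was at most 0.00244 and so was the adjusted one. Leaving out the samples farthest from the HSFA2 median, Col-0 and the library labelled tt3-3, r was 0.757 (HSP17.6A) to 0.956 (HSP101). In the 14 samples with Unix files r was 0.833 (HSP17.6A) to 0.968 (HSP22), and the 3 others are too few for a value. The permutations treat the 17 samples as exchangeable, but lines of 1 locus are not fully independent samples, and all levels share each library's depth. How many of all genes relate to HSFA2 this closely was not counted, so these p-values do not set the members apart.

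**Figure D3:**
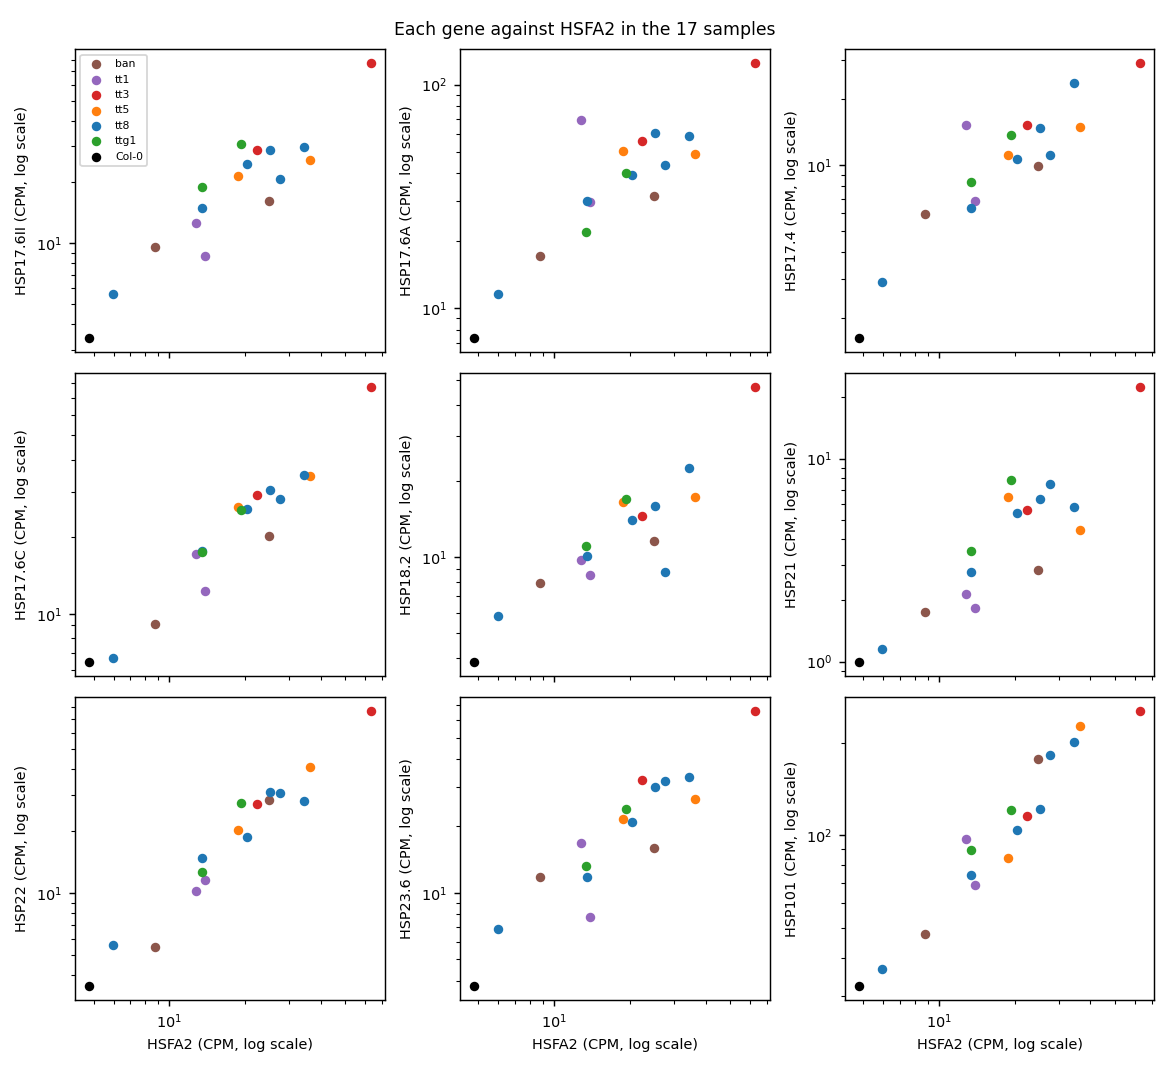
Level of each of the 9 other genes (vertical axes, CPM, log scale) against that of HSFA2 (horizontal axes, CPM, log scale), with 1 point per sample. Col-0 is at the lower left and the library labelled tt3-3 at the upper right of every panel, and the tt1 library with high HSP17.6A lies off the line of the other samples.

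The tandem pair departed from the common order. HSP17.6A held 84.7% of the summed counts of the pair in tt1-4 (exact 95% binomial interval 82.7% to 86.4%) and 77.6% in tt1-5 (73.7% to 81.2%). In ttg1-23 and ttg1-24 it held 53.7% (50.7% to 56.7%) and 56.7% (52.5% to 60.8%). The other 12 mutant libraries lay between 61.6% and 70.1%, and Col-0 was at 68.2% (60.7% to 75.1%). By point values both tt1 lines were thus above every other sample and both ttg1 lines below every other sample. The intervals cover counting error only, and that of tt1-5 overlapped that of Col-0. The interval of ttg1-24 overlapped those of Col-0, ban-7 and the libraries labelled tt8-12 (59.1% to 64.0%) and tt3-3 (60.3% to 63.4%). No test of the share between loci was run, and this pair was singled out after its values were seen.

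**Figure D4:**
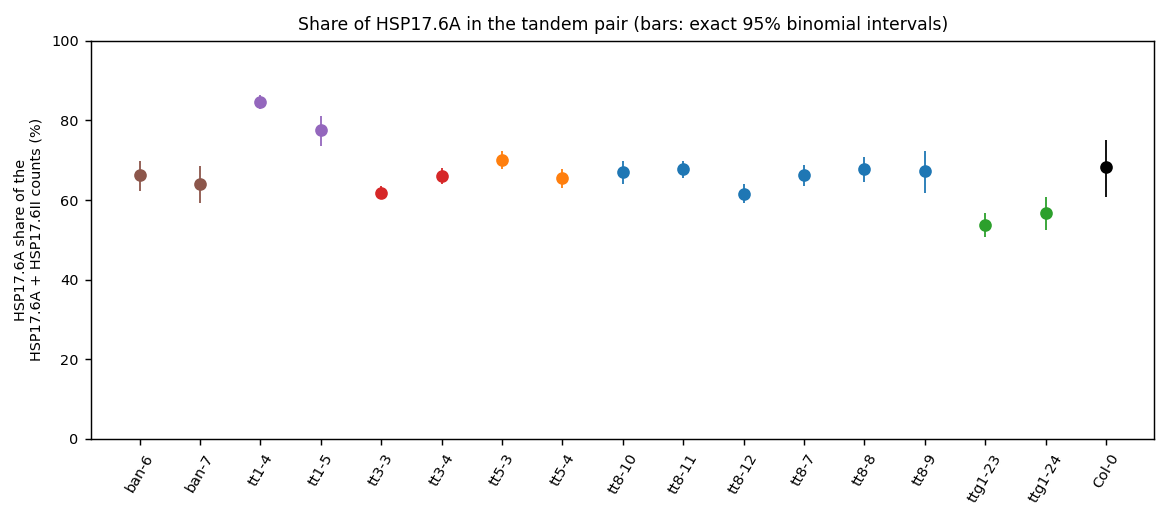
Share of HSP17.6A in the summed counts of HSP17.6A and HSP17.6II (vertical axis, percent) in each mutant library and in Col-0, with exact 95% binomial intervals. The 2 tt1 libraries are the highest points and the 2 ttg1 libraries the lowest.

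The 12 late seed genes, which code for storage proteins, oil body proteins and late embryo proteins, had their highest and lowest sums in the same lines as that share. The summed level was 21440 and 7667 CPM in tt1-4 and tt1-5, the highest of all samples, and 1115 and 899 CPM in ttg1-23 and ttg1-24, which with ban-6 (1320 CPM) were the lowest. The other mutants had 2073 to 6223 CPM and Col-0 2249 CPM. In ban-6, despite its low sum, HSP17.6A held 66.2% of the pair, which was not low like the share in the ttg1 lines. None of the 12 was at 0 in any sample. Against the other mutant loci all 12 were fitted higher in tt1, where edgeR called 7 (0.14% of all genes), and all 12 lower in ttg1, where it called 2 (0.959%). In 16 fits that each left out 1 library, the 7 tt1 calls held in 6 to 11 fits each. The 2 ttg1 calls held in 3 fits each and were lost with a line-end term (adjusted p = 0.0621 and 0.0611 by edgeR). OLEO2, an oil body protein and the most abundant of the list, had 242 to 2436 CPM in the mutants, highest in tt1-4, and 653 CPM in Col-0. HSFA9, the heat shock factor of seeds, was also highest in tt1-4 (7.40 CPM, against 0.623 CPM in Col-0). In tt1 it was 3.05 ± 0.46 log2 (SE) above the other mutant loci (adjusted p = 0.0313 by edgeR), a call that held in 7 of 16 fits that each left out 1 library (adjusted p 0.0258 to 0.673). The part of the seed transcripts in the HSP17.6A share was not tested. EM1, a late embryo protein, had 288 to 1333 CPM in the mutants and 1054 CPM in Col-0. Its level fell by 1.62 ± 0.37 log2 (SE) in ttg1 against Col-0 (adjusted p = 0.0493 by edgeR), a call that held in 4 of 16 such fits and was lost with a line-end term (adjusted p = 0.411).

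The 11 other small heat shock protein genes, on a list that like the following ones was chosen with earlier results known, had 0 members called against Col-0 by edgeR in all 6 loci. At an unadjusted p under 0.05 there were 4 for tt3, 3 for ttg1, 2 each for ban, tt5 and tt8 and 0 for tt1. The same p was reached by 18.8% of all genes for tt3, 18.9% for ttg1, 15% for ban, 10.8% for tt5, 20.5% for tt8 and 17% for tt1, so most of these counts lie near the background. DESeq2 called 2 for tt3, 2 for ttg1, 1 for tt8 and 0 for the other loci, with 1.99% to 7.72% of all genes called. Their median log2 difference from Col-0 was 2.23 for tt3, 1.85 for tt5, 1.69 for tt8, 1.66 for ttg1, 1.31 for ban and 0.83 for tt1. In the library labelled tt3-3 6 of the 11 had their highest level, as had 7.11% of the genes with a mean count of at least 10. Col-0 was the lowest sample for 2, which is near the 19.7% of those genes. AT2G29500 had 167 CPM in the library labelled tt3-3 and 29.2 CPM in that labelled tt8-9, against 29.5 CPM in Col-0. AT5G51440 had 28.3 to 139 CPM in the mutants and 17.8 CPM in Col-0.

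Of 20 heat shock factors other than HSFA2, edgeR called 1 for tt8, against Col-0, and 0 for the other loci, with 2 to 5 per locus at an unadjusted p under 0.05. At that p lay 10.8% to 20.5% of all genes, so counts of this size are near the background. DESeq2 tested 19 of the 20 and called 2 for tt1, 1 each for tt8, tt3, ttg1 and ban and 0 for tt5, where it called 1.99% to 7.72% of all genes it tested. The edgeR call was RHA1 (HSFA4C, AT5G45710), which had 23.7 to 36.4 CPM in the mutants and 15.1 CPM in Col-0. It rose by 0.93 ± 0.22 log2 (SE, adjusted p = 0.0473), a call that held in 5 of 16 fits that each left out 1 library and was lost with a line-end term (adjusted p = 0.178). The median log2 difference from Col-0 over the 20 was 0.06 to 0.44 across loci. HSF4 (HSFB1), a repressor that is itself induced by heat, had 104 to 241 CPM in the mutants, highest in the library labelled tt3-3, and 96.5 CPM in Col-0. HSF A4A had 77.7 to 216 CPM in the mutants and 75.8 CPM in Col-0.

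Among 10 cytosolic HSP70 and HSP90 genes, the ATP-driven chaperones that fold new and damaged proteins, edgeR called 4 differences from Col-0, all lower in the mutants (1 each for tt1 and tt8 and 2 for ttg1). Of all genes edgeR called 1.55% for tt1, 2.21% for tt8 and 1.56% for ttg1. At an unadjusted p under 0.05 by edgeR there were 4 for tt1, 3 for tt3, 2 each for tt5, tt8 and ttg1 and 1 for ban. At that p lay 10.8% to 20.5% of all genes. DESeq2 called 1 lower each for ban, tt1 and tt8, 2 lower for ttg1, 1 higher for tt3 and 0 for tt5. Across these loci it called 1.99% to 7.72% of all genes it tested. Hsp81.4 (AT5G56000), an HSP90, had 17.1 to 26.0 CPM in the mutants and 29.3 CPM in Col-0. It fell by 0.73 ± 0.15 log2 in tt1 (adjusted p = 0.0319), by 0.75 ± 0.15 in ttg1 (adjusted p = 0.0332) and by 0.55 ± 0.13 in tt8 (adjusted p = 0.0446), all by edgeR. HSP81-3 (AT5G56010), another HSP90, fell by 0.88 ± 0.18 log2 in ttg1 (adjusted p = 0.0391). Leaving out single libraries kept these calls in 4 to 9 of 16 fits each, and none held with a line-end term. These HSP90 genes are near copies of each other, so the split of reads between them is uncertain. HSC70-1, the constitutive HSP70, had 531 to 986 CPM in the mutants and 919 CPM in Col-0, and HSP70 (AT3G12580), which heat induces, had 143 to 801 CPM in the mutants, highest in ban-6, and 355.5 CPM in Col-0. The list's median log2 difference ran from -0.35 in ttg1 to 0.34 in tt3.

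For 12 co-chaperones and other heat-induced genes edgeR called 0 in all 6 loci against Col-0, with 1 to 3 at an unadjusted p under 0.05, near the 10.8% to 20.5% of all genes at that p. DESeq2 called 2 for tt3, 1 each for tt8 and tt1 and 0 for the other loci, with 1.99% to 7.72% of all genes called. The median log2 difference was 0.20 in tt1 to 1.22 in tt3. In the library labelled tt3-3 9 of the 12 had their highest level, against 7.11% of the genes with a mean count of at least 10. DREB2A, a drought and heat transcription factor, had 61.7 to 310.0 CPM in the mutants and 332 CPM in Col-0, its highest sample. ROF1, a co-chaperone of the FK506-binding family, had 74.9 to 158 CPM in the mutants and 104 CPM in Col-0.

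The genes most alike in pattern were sought among 18684 genes, the members included only as the mean of their log2(CPM + 1) over the 17 samples. The measure was Spearman's rho with that mean, given as a description, since all genes share each library's depth. The 10 highest were AT2G29500 (0.922), Hsp70b (0.919), BAG6 (0.912), AT1G07400 (0.904), AT1G54050 (0.902), AT5G51440 (0.892), GolS1 (0.890), ATERDJ3A (0.885), Hop3 (0.878) and AT1G59860 (0.865), and AT5G48570 tied with the last. Each of the 10 was highest in the library labelled tt3-3, which the choice by likeness nearly fixes, since all members are highest there. All 10 are on the lists of chaperone and heat-induced genes, which were chosen with earlier results of these data known. AT2G29500, AT1G07400, AT1G54050, AT5G51440 and AT1G59860 are other small heat shock protein genes. Hsp70b had 36.8 to 270.0 CPM in the mutants and 28.7 CPM in Col-0, and BAG6, a calmodulin-binding co-chaperone, had 31.4 to 189.7 CPM in the mutants and 29.0 CPM in Col-0. GolS1, which makes galactinol, had 17.8 to 111 CPM in the mutants and 24.7 CPM in Col-0. For 6 of the 10 (AT1G07400, AT1G54050, GolS1, Hop3, AT2G29500 and AT1G59860) the lowest mutant lay below Col-0, unlike for the members. The gap was small for AT2G29500 (29.2 against 29.5 CPM), Hop3 (48.3 against 49.2) and AT1G59860 (9.64 against 9.78). Among the members, the Poisson intervals of tt8-9 and Col-0 overlapped for HSP17.6C, HSP21 and HSFA2. This difference therefore does not set the members apart.

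**Figure D5:**
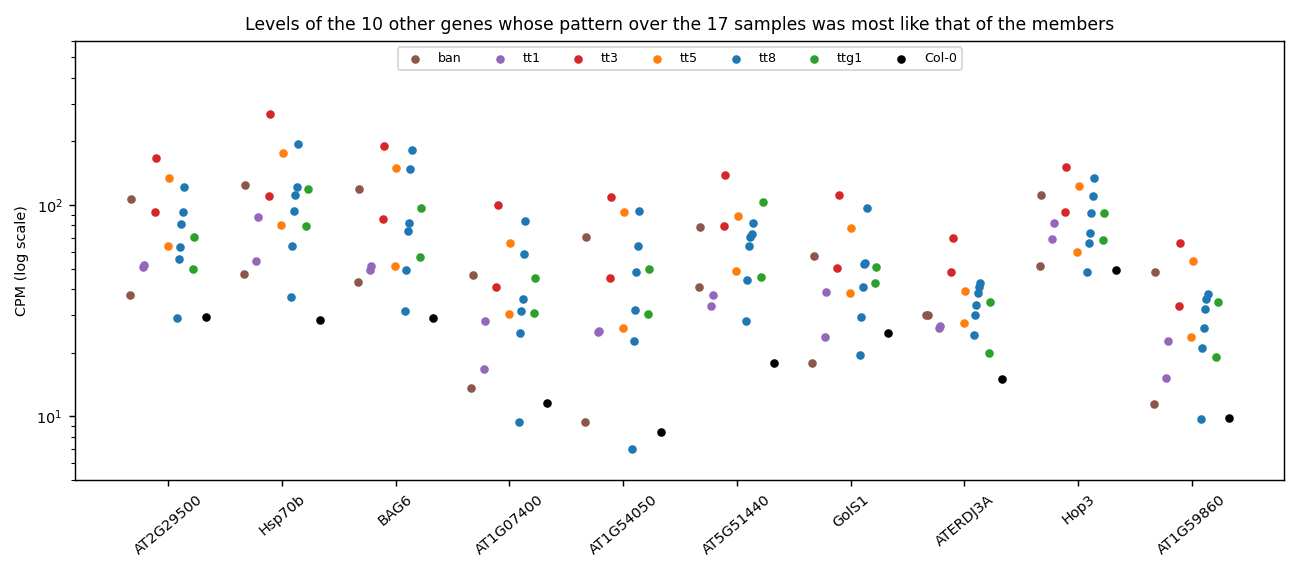
Level (vertical axis, CPM, log scale) of the 10 other genes whose pattern was most like the mean of the members, in each mutant library by locus and in Col-0 at the right of each gene. One library labelled tt3 is the highest point for all 10 genes.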

How the data were processed

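The deposited values were raw counts per gene in 18 files. Per the submitters' processing notes, HISAT2 and the build TAIR10 were used. The counting program was not given in the sources used here, nor were the annotation and the strand setting. Per the labels' protocols, libraries were stranded and made from 1 µg of total RNA. Of 33939 rows, 1392 rows without an AT1G to AT5G gene identifier (0.00637% to 0.0204% of counts) were left out of library sizes and tests. All 32547 gene identifiers matched the RefSeq annotation of TAIR10.1. Levels are CPM with exact 95% Poisson intervals, which cover counting error only. Both Col-0 files were counted as 1 sample, their rounded mean, and this lone sample is assumed to vary like the mutant groups.

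The tests used edgeR 4.0.16 in R 4.3.3 (TMM factors 0.911 to 1.07, filterByExpr by group on the 18 files, robust quasi-likelihood F-test, two-sided, Benjamini-Hochberg at 0.05) on 20747 genes in 17 samples with 10 residual degrees of freedom, in 13 comparisons. SE is the absolute log2 fold change divided by the square root of F. DESeq2 1.42.0 was an alternative, as were other size factors, no filter, Col-0 as 2 samples, a line-end term, no robust option, the compared libraries alone and leaving out each mutant library. The members and the gene lists were chosen with earlier results of these data known. Named genes are the members, of each list the 2 most abundant genes and those called against Col-0, and the 10 genes most like the members. The cytosolic HSP70 and HSP90 genes lowest in Col-0 are named as well.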

Additional observations from a re-analysis of the deposited data

How the results depend on the processing

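By edgeR 0 members were called in all 13 comparisons, and counts differed under few alternatives. DESeq2 called 9 members for tt3, 4 for tt8, 1 for ttg1 and 1 for tt1, all against Col-0. Of the genes it tested, it called 5.16%, 7.34%, 7.72% and 5.34% in that order. With the Col-0 files as 2 samples edgeR called 9 for tt3, 9 for tt8, 3 for ttg1, 2 for tt5 and 1 for tt1, against 12.1%, 21%, 14.4%, 4.17% and 10.7% of all genes in that order, where their near-identical counts enter as separate samples. With the compared libraries alone 1 was called for tt3, against 3.02% of all genes. Other size factors, no filter, a line-end term, no robust option and leaving out each library (0 to 0 in every comparison) called 0. The number of all genes called moved more: for tt8 against Col-0 it was 458 by edgeR, 1463 by DESeq2, 4347 with the Col-0 files as 2 samples, 289 with no filter, 34 with the line-end term and 254 to 1088 over the libraries left out in turn, and for tt5, with the fewest, it was 51, 375, 865, 33, 12 and 19 to 91 under the same settings. Over 24 settings all 1440 log2 differences from Col-0 were above 0, with that Col-0 sample shared. Every mutant library already lay above Col-0 for all 10 genes, so refits of these counts could hardly give another sign. Of the 10 genes most like the members, 7 were also among the 10 highest by Pearson's r. For the HSFA2 relations a pseudocount of 0.1 in place of 1 kept all 9 past 0.05. No paired analysis was possible because replicate numbers only name alleles of different loci and pair no samples. With 1 Col-0 sample and 2 lines for 5 of 6 loci, the fitted errors of about 1 log2 limit what can be called. HSP21 had 16 counts in Col-0.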

Other observations

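Of 6 organellar HSP70, HSP90 and ClpB genes edgeR called 0 against Col-0 in all 6 loci, with 0 to 2 per locus at an unadjusted p under 0.05, where 10.8% to 20.5% of all genes lay. DESeq2 called 1 each for tt3 (5.16% of the genes it tested) and tt8 (7.34%). Their median log2 difference from Col-0 ran from -0.01 in ttg1 to 0.37 in tt3. The plastid HSP70 gene cpHsc70-1 had 174 to 248.5 CPM in the mutants, highest in the library labelled tt3-3, and 185 CPM in Col-0. CLPB3, the plastid relative of HSP101, had 87.6 to 239 CPM in the mutants, highest in the library labelled tt8-7, and 129 CPM in Col-0.

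Of 11 genes of the endoplasmic reticulum edgeR called 0 against Col-0 in all 6 loci. At an unadjusted p under 0.05 there were 5 for tt5, where 10.8% of all genes lay. There were 3 each for ban (15%), tt8 (20.5%) and ttg1 (18.9%), 2 for tt3 (18.8%) and 0 for tt1 (17%). DESeq2 called 1 higher and 1 lower for tt3, 2 lower for ttg1, 1 lower each for tt8 and ban, and 0 for the other loci. Of all genes it tested, DESeq2 called 1.99% to 7.72% across the loci. The list's median log2 difference from Col-0 was -0.06 in tt1 to -0.47 in tt5. SHD, the HSP90 of that compartment, had 132 to 239 CPM in the mutants and 259.6 CPM in Col-0, its highest sample. BZIP60, a transcription factor of the unfolded protein response, had 78.3 to 401 CPM in the mutants, highest in ttg1-24, and 118 CPM in Col-0. The late seed list had median log2 differences from Col-0 of 4.17 in tt1, 1.49 in tt5, 0.88 in tt8, 0.44 in ban, 0.27 in tt3 and -0.77 in ttg1. For that list DESeq2 called 8 of the 12 higher in tt1 (5.34% of the genes it tested) and 1 lower in ttg1 (7.72%). The 4 tested photosynthesis genes had medians of -2.18 in tt1 to -0.69 in ttg1, with 0 called by edgeR, 0 to 1 per locus at an unadjusted p under 0.05 and 0 called by DESeq2, which tested 3 of the 4.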
